A study of Mus musculus with 4 samples.

Results

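Drug conjugation enzymes attach a sugar acid, a sulfate or glutathione to drugs, bilirubin, steroids and bile acids, so that they can leave the body in bile or urine. The members described here are the genes of the 3 cytosolic and microsomal enzyme classes that do most of this work in liver, chosen by symbol from the RefSeq table of GRCm38: UDP-glucuronosyltransferases (symbols starting Ugt1, Ugt2 or Ugt3), sulfotransferases (Sult) and glutathione S-transferases (Gsta, Gstm, Gstp, Gstt, Gstk, Gsto and Gstz). There were 64 such protein-coding genes among 21887 on assembled chromosomes, namely 21 UGT, 21 SULT and 22 GST genes. UGT enzymes take glucuronic acid from UDP-glucuronic acid, SULT enzymes take sulfate from the donor PAPS, and GST enzymes add glutathione to reactive, electron-poor compounds. Many of the genes stand in tandem clusters of close copies, and all Ugt1a genes join their own first exon to the same last exons.

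ChIP-seq against H3K23pr, the propionyl mark on lysine 23 of histone H3, was done on liver of male C57BL/6 mice. The KO library came from mice with a hepatocyte-specific knockout of RPN11, the deubiquitylating subunit of the proteasome lid, and the WT library from RPN11 flox/flox mice. Each genotype had 1 immunoprecipitate (IP) and 1 input. Histone propionylation draws on propionyl-CoA and is known mainly from active chromatin. Age, number of animals per library and the Cre driver are not given in the sources used here, and whole liver also holds cells that are not hepatocytes. Changes in cell make-up and in the mark per cell cannot be told apart. Peaks do not check the tissue or the knockout; the targeted gene, Psmd14, carried 10 KO and 7 WT peaks in the gene and 2 kb on both sides.

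The data used were the peaks called in each IP against its own input. The KO list held 41907 peaks from 15468265 filtered IP fragments and the WT list 54397 peaks from 13615838. The mean IP fragment was 71 bp long in KO and 97 bp in WT. With 1 library per genotype there is no replicate check, and each difference below is between these libraries. Intervals are exact 95% Poisson or binomial intervals and cover counting error only.

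A peak was assigned to a gene when it overlapped the gene or the 2 kb on either side. A KO peak was found at 31 of the 64 members (48.4%), against 29.6% of all protein-coding genes. A WT peak was found at 27 members (42.2%), against 41.6% of all. Both lists had a peak at 21 members (32.8%), against 21.6% of all. More KO than WT peaks were found at 23 members (35.9%), against 14.3% of all genes, and more WT than KO peaks at 9 members (14.1%), against 29.5%. Because the 9 Ugt1a genes overlap, several of them share the same peaks. With overlapping windows merged into 52 loci, a KO peak was found at 22, a WT peak at 20 and both at 14. More KO than WT peaks were found at 17 loci, and more WT than KO peaks at 9.

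With each peak counted 1 time, 60 KO and 41 WT peaks lay over the members, a KO to WT ratio of 1.46 (95% interval 0.968 to 2.23). Over all protein-coding genes the numbers were 19251 and 25220, a ratio of 0.763 (0.749 to 0.778). Per Mb of gene and flanks, the members had 40.8 KO peaks (31.1 to 52.5) and 27.9 WT peaks (20.0 to 37.8), and all protein-coding genes had 17.5 and 22.9. Without the UGT2 genes of chromosome 5, left out after the values were seen, the member ratio was 1.15 (0.703 to 1.89). For all members at a caller q of 0.05 or smaller it was 4.40 (1.63 to 14.9), where all protein-coding genes had 2.06. This cutoff is not the same height in both lists. Where the background was lowest, a summit of 6 fragments met it in KO but not in WT, where 7 did. The member density was 2.33 times that of all genes in KO and 1.22 times in WT. Long genes can collect more peaks, so genes of like length were also compared. For the 32 members between 12.2 and 31.7 kb long, a KO peak was found at 16, against 23.5% of the 5686 genes in that range, and a WT peak at 11, against 37.2%.

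**Figure D1:**
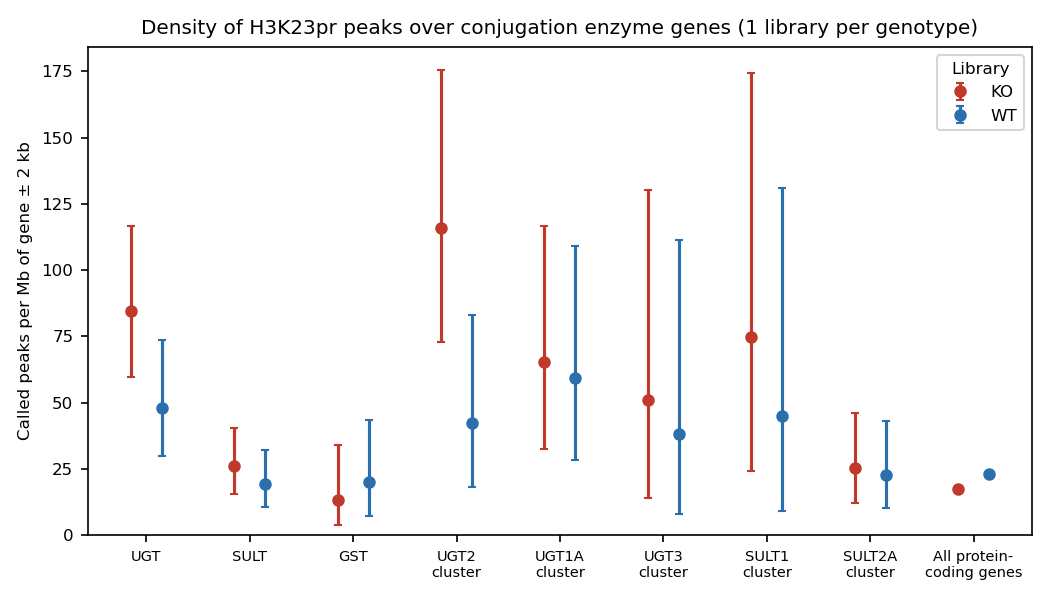
Called peaks per Mb of gene with 2 kb on both sides, by enzyme class and by cluster, for KO and WT, with exact 95% Poisson intervals (counting error only). UGT genes had 84.7 KO and 48.1 WT peaks per Mb, and all protein-coding genes, at the right, had 17.5 and 22.9.

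The UGT genes had the most peaks per Mb of the 3 classes in both lists. Of all protein-coding genes, 29.6% had a KO peak and 41.6% a WT peak. At UGT genes, a KO peak was found at 20 of 21 members and a WT peak at 15. Among these, 9 with a KO peak and 7 with a WT peak are overlapping Ugt1a genes, which share 11 KO and 10 WT peaks. The density over UGT genes was 84.7 KO peaks per Mb (59.6 to 117) and 48.1 WT peaks per Mb (29.8 to 73.5). The UGT gene with neither was Ugt2b38. At SULT genes, 10 of 21 had a KO peak and 9 a WT peak, with 25.9 KO peaks per Mb (15.6 to 40.5) and 19.1 WT peaks per Mb (10.4 to 32.1). At GST genes, 1 of 22 had a KO peak and 3 a WT peak, with 13.3 KO peaks per Mb (3.63 to 34.1) and 20.0 WT peaks per Mb (7.33 to 43.5). The GST and SULT intervals included the values of all protein-coding genes in both genotypes, and the UGT intervals lay above them in both. GST genes are also short, with a median length of 7.47 kb, against 26.6 kb for UGT and 28.5 kb for SULT genes.

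**Figure D2:**
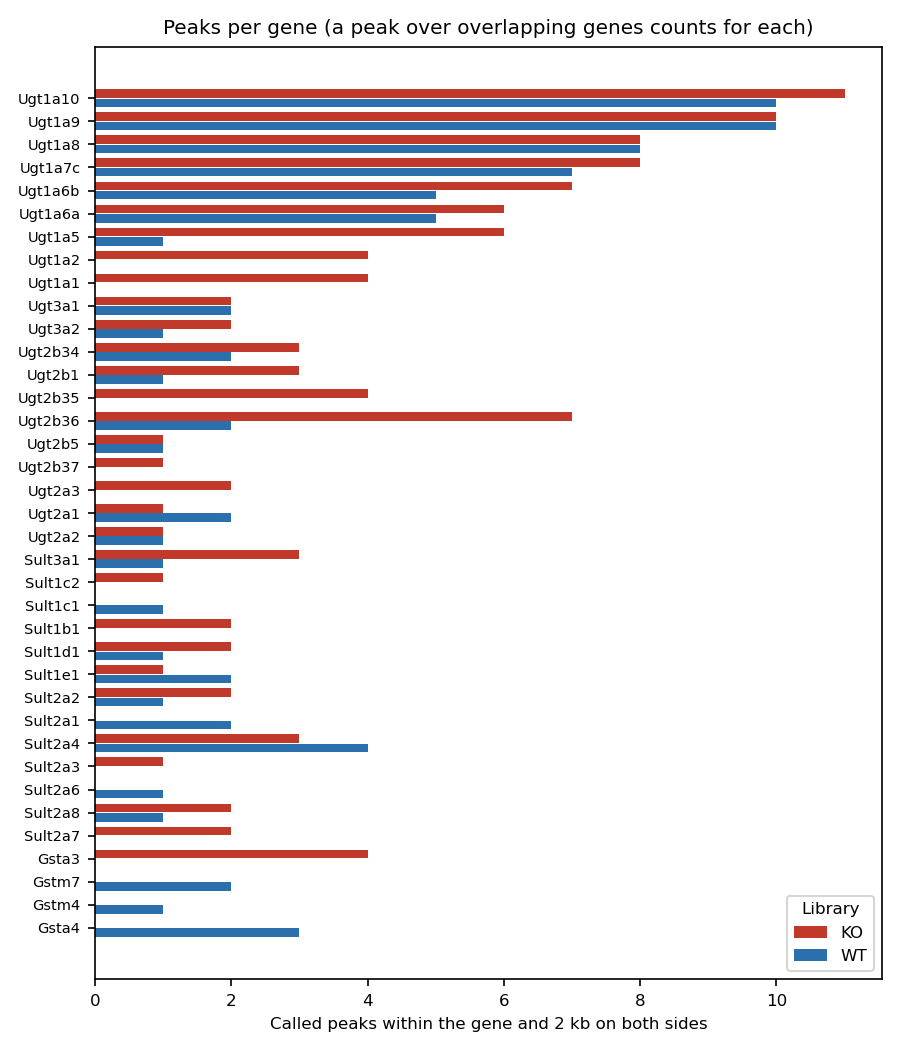
Number of KO and WT peaks within each gene and 2 kb on both sides, for the 37 members with at least 1 peak. For each gene the KO bar is drawn above the WT bar. Ugt2b36 has 7 KO and 2 WT peaks. The UGT genes Ugt1a1, Ugt1a2, Ugt2b35, Ugt2b37 and Ugt2a3 are among the 10 members with KO peaks and no WT peak. Another 6 members, all SULT or GST genes, have WT peaks and no KO peak. Ugt1a1 and Ugt1a2 share the same 4 KO peaks.

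By place, 15 of 60 KO peaks (25%, 14.7 to 37.9) and 16 of 41 WT peaks (39.0%, 24.2 to 55.5) had their midpoint within 2 kb of either end of a member, where these stretches make up 31.6% of the member windows. Over all protein-coding genes 8.94% of KO and 11.7% of WT peaks did, and the stretches make up 13.6%. RefSeq start sites and strand were matched for 56 of the 64 members. A KO peak lay within 2 kb of a start at 8 of them, against 4.45% of 17492 protein-coding genes with a listed start, and a WT peak at 6, against 7.88%. The KO genes were Ugt1a1, Ugt1a8, Ugt2a3, Ugt2b1, Ugt2b5, Sult1b1, Sult1d1 and Sult3a1. The WT genes were Ugt1a6a, Ugt1a7c, Ugt2b34, Sult1d1, Gstm4 and Gstm7. Sult1d1 was in both groups, with the KO peak 447 bp past its start and the WT peak before it, at −1782 bp.

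In 1 case a peak covered a listed start site. The KO peak of 6 fragments at Sult3a1 (chr10:33857660-33857779, fold 4.46) spans the start that RefSeq lists for this gene, which is 6702 bp inside the gene record. Of the 67 promoter windows listed for members, from 250 bases before to 50 after a start, it was the only one overlapped by a KO peak, and 0 were overlapped by a WT peak. Over all 32851 windows 0.265% were overlapped in KO and 0.548% in WT. Whether the listed Sult3a1 start is used in liver is not known. Repeat content, and how uniquely reads can be placed, were not checked for this stretch or for the other peaks, so the peak is not shown to mark a promoter in use. The sequence is given 5′ to 3′ on the + strand (chr10:33857472-33857771, RefSeq, GRCm38.p6), with the 112 bases under the KO peak in capitals.
Sult3a1: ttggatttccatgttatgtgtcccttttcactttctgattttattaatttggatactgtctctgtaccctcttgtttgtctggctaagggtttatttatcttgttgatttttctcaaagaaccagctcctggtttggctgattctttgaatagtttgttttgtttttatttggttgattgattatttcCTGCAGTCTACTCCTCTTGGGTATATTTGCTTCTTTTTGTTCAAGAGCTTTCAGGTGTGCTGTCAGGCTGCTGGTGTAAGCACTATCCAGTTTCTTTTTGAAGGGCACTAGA

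Promoters of further members with a peak within 2 kb of the start are shown for their letters, since Ugt1a8 had that peak in KO, Gstm7 in WT and Sult1d1 in both lists. Known control elements of conjugation genes were searched on both strands of all windows, and the matches are in capitals. They are TGACNNNGC, the core of the antioxidant response element, GCGTG, the core of the element bound by the aryl hydrocarbon receptor, and TATAAA, the TATA box; none of these contains another. No peak overlaps these windows, which are chr5:87568957-87569256 (Sult1d1, - strand), chr1:88087578-88087877 (Ugt1a8, + strand) and chr3:107931565-107931864 (Gstm7, - strand), from RefSeq, GRCm38.p6.
Sult1d1: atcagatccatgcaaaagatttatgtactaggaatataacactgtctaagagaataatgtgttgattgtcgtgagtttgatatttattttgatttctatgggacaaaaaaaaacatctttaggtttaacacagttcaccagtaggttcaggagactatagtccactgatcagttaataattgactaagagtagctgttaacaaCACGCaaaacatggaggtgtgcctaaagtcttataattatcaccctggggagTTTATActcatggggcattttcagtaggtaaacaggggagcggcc
Ugt1a8: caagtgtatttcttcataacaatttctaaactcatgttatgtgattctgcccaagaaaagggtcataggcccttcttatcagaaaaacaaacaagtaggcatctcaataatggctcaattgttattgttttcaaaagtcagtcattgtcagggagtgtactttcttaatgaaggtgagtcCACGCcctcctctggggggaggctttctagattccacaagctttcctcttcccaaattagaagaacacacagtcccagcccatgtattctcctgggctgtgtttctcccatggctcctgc
Gstm7: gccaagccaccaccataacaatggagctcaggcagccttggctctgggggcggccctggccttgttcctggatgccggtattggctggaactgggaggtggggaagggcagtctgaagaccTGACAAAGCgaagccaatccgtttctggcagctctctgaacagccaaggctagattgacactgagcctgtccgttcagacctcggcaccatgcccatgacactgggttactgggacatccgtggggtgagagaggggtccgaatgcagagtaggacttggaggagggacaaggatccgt

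Sult1d1 has GCGTG and TATAAA, both on the opposite strand, Ugt1a8 has GCGTG on the opposite strand, and the printed Gstm7 window has TGACNNNGC. Another listed Gstm7 window (chr3:107931768-107932067), not printed, has TATAAA. TGACNNNGC was found in 3 member genes, Gsta3, Gstm5 and Gstm7, all of the GST class, or 4.48% of the 67 member windows, against 12.4% of all windows. GCGTG was found in 19.4% of member windows and 32.4% of all, and in 2 of 19 UGT, 3 of 17 SULT and 6 of 20 GST genes. TATAAA was found in 22.4% of member windows and 13.6% of all, and in 3 UGT, 7 SULT and 4 GST genes. The motifs were picked after values had been seen, and a match describes letters, not binding.

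Of the 3 clusters with 10 or more KO peaks, the UGT2 cluster on chromosome 5 (chr5:86889770-87490871, mm10) had the highest ratio of KO to WT peaks. It holds 8 genes of the steroid- and drug-conjugating Ugt2b and Ugt2a3 type and the olfactory genes Ugt2a1 and Ugt2a2. Over its 10 genes there were 22 KO and 8 WT peaks, a ratio of 2.75 (1.18 to 7.14). In density this was 116 KO peaks per Mb (72.7 to 176) and 42.2 WT peaks per Mb (18.2 to 83.1), 6.63 and 1.84 times the values of all protein-coding genes. The protein-coding genes of chromosome 5 as a whole had 15.2 KO and 21.7 WT peaks per Mb.

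Ugt2b36 had the most peaks of the cluster, 7 in KO and 2 in WT. Its KO summits held 5, 7, 7, 6, 6, 4 and 8 fragments along chr5:87070519-87088302, and its WT summits held 5 and 6. All of them were inside the gene. No KO peak there overlapped a WT peak, where only 1.1% of the whole KO list and 0.853% of the whole WT list overlapped a peak of the other list. At 2.29 KO peaks per 10 kb, Ugt2b36 stood among the 33 of 21887 genes (0.151%) with this density or more, a comparison chosen after its values were seen. Among the members it was not the densest. Ugt1a1, with 4 KO peaks in a window of 12.0 kb, and Ugt2b35, with 4 in 16.4 kb, were denser.

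Ugt2b35 had 4 KO peaks, with 5, 4, 7 and 6 fragments, and no WT peak. The peaks of 7 and 6 fragments (chr5:87011708-87011866 and chr5:87014409-87014484) lay within 2 kb of the end of the gene, on either side of it. Ugt2b37 had 1 KO peak of 7 fragments (chr5:87249132-87249217) and Ugt2a3 had KO peaks of 6 and 4 fragments, and neither had a WT peak. Ugt2b34 had KO peaks of 5, 5 and 6 fragments and WT peaks of 4 and 5. Ugt2b1, a UGT2B gene known for strong expression in rodent liver, had KO peaks of 4, 5 and 4 fragments and a WT peak of 5. Ugt2b5 had 1 KO and 1 WT peak, each of 5 fragments. Of the olfactory genes, Ugt2a1 had 1 KO peak of 4 fragments and WT peaks of 5 and 4, and Ugt2a2, which overlaps it, shared that KO peak and the WT peak of 5.

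The dense stretch went on between the genes. In the whole span of 605 kb there were 53 KO and 30 WT peaks, a ratio of 1.77 (1.11 to 2.86), and 31 KO and 22 WT peaks of these lay outside the windows of the 10 genes, at 74.6 and 53.0 per Mb. In the 500 kb on the lower-coordinate side the density was 30.0 KO and 44.0 WT peaks per Mb, and in the 500 kb on the other side, which includes the SULT1 cluster, 34.0 and 26.0. KO peaks exceeded WT peaks in 10 of 13 consecutive bins of 50 kb that start inside the cluster and in 7 of 20 in the flanks. The last of the 13 bins, from 600 to 650 kb, is among these 10 but lies mostly past the cluster. Its 2 KO peaks are those of Sult1b1, and it has 0 WT peaks. Of 4383 consecutive windows of 605 kb across the genome, 4 (0.0913%) held at least 53 KO peaks, and the medians were 9 KO and 12 WT peaks. This window comparison was also chosen after the values were seen.

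**Figure D3:**
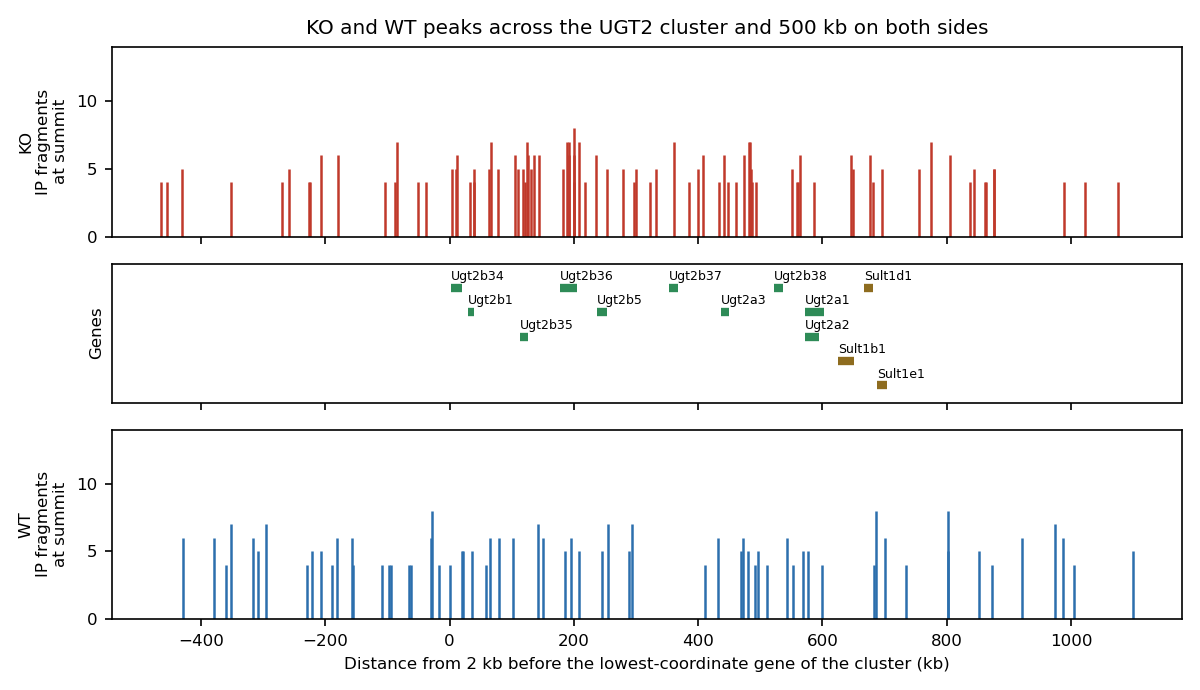
KO (top) and WT (bottom) peaks across the UGT2 cluster and 500 kb on both sides, as IP fragments at the summit against distance in kb, with UGT genes in green and the SULT1 genes in brown. The cluster span of 605 kb holds 53 KO and 30 WT peaks, and its summits reach 8 fragments in KO and 7 in WT.

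These peaks were low in both genotypes. Reads from close copies of Ugt2b genes may also be placed at either copy, and the part of this in the counts was not tested. Across the span the median summit held 5 fragments in KO and 5 in WT, and 21 KO and 11 WT summits held 6 or more. Over the genes, the background implied by the deposited fold was 0.568 to 0.773 fragments for the 22 KO peaks and 0.692 to 0.704 for the 8 WT peaks; the lower value of each range is the lowest common level of its list. At a caller q of 0.05 or smaller, 10 KO peaks and 0 WT peaks remained over the 10 genes. Over all protein-coding genes 5554 KO and 2701 WT peaks did, so that the higher KO number at this threshold is found across the genome. As given above, this cutoff asks for higher summits in WT.

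The UGT1A cluster (chr1:88055411-88220002) was dense in both lists, with 11 KO and 10 WT peaks, or 65.2 (32.6 to 117) and 59.3 (28.4 to 109) per Mb. What differed was the place. The window of Ugt1a1, the enzyme that conjugates bilirubin, with the last exons that all Ugt1a genes use, had 4 KO peaks, with 7, 8, 10 and 7 fragments, and 0 WT peaks. The highest, with 10 fragments and a fold of 5.03 (chr1:88219713-88219858), lay just before the common end, at −216 bp, and ranked 1059 of the 41907 KO peaks by caller p. The implied KO background at these 4 peaks was 1.06 to 1.53 fragments, 1.87 to 2.70 times the lowest common level. The other 7 KO peaks, at 4 to 7 fragments, and all 10 WT peaks, at 4 to 13, were spread over the cluster upstream of it. Because each Ugt1a gene runs on to nearly the same end, the windows nest: there were 11 KO and 10 WT peaks in that of Ugt1a10, 10 and 10 in that of Ugt1a9, 7 and 5 in that of Ugt1a6b, 6 and 1 in that of Ugt1a5, and 4 and 0 in that of Ugt1a2.

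The strongest peak over any member was in WT, within Ugt1a8 and 2768 bp past its start (chr1:88090508-88090684). It held 13 fragments at a fold of 7.89, with a −log10 q of 7.09, and ranked 38 of 54397 WT peaks. The nearest KO peak, of 6 fragments, was 1023 bp away. WT peaks also lay 573 bp past the start of Ugt1a6a, a phenol-conjugating enzyme, with 6 fragments, and 483 and 938 bp past the start of Ugt1a7c, with 4 each. In KO, peaks lay 316 and 1410 bp past the start of Ugt1a1 and 1620 bp past that of Ugt1a8, whose promoter is printed above.

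**Figure D4:**
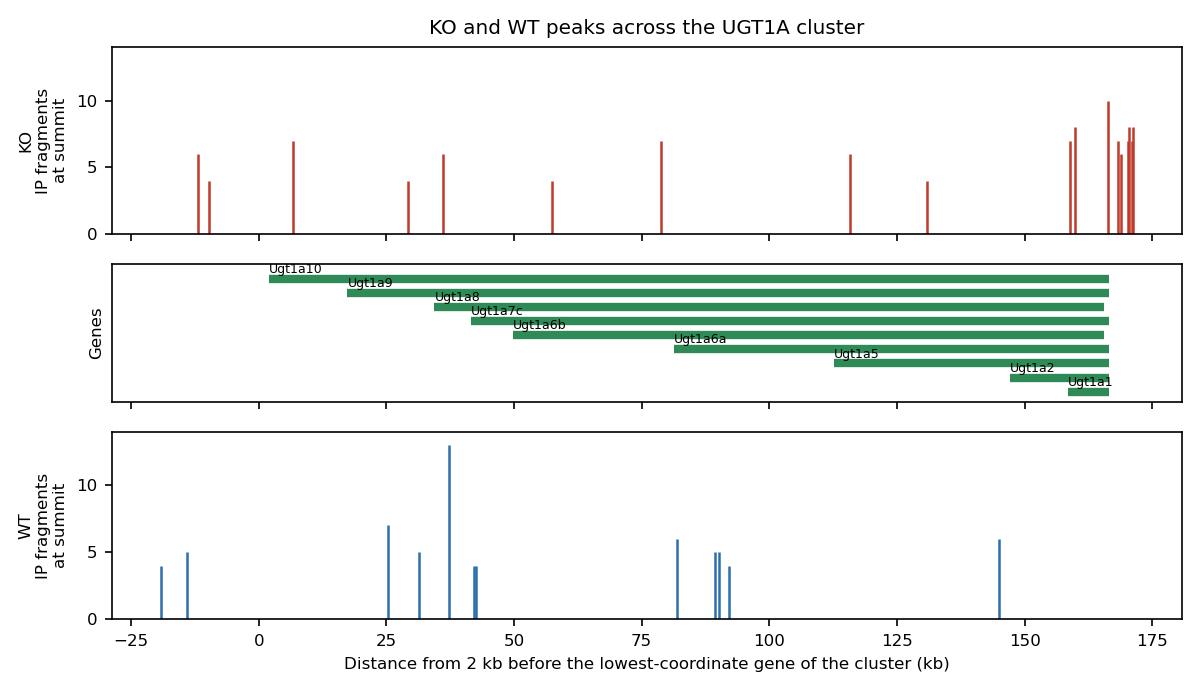
KO (top) and WT (bottom) peaks across the UGT1A cluster, as IP fragments at the summit against distance in kb; the Ugt1a genes (green) start at different places and have nearly the same end. KO has 4 peaks of 7 to 10 fragments in the window of Ugt1a1, where WT has 0, and WT has the summit of 13 fragments further left, within Ugt1a8.

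The third UGT cluster, of Ugt3a1 and Ugt3a2 on chromosome 15, had 4 KO and 3 WT peaks. The human enzymes of this family use sugars other than glucuronic acid. Ugt3a1 had KO summits of 6 and 5 fragments and WT summits of 6 and 6, and Ugt3a2 had KO summits of 4 and 4 and a WT summit of 4.

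The SULT1 cluster lies next to the UGT2 cluster (chr5:87513327-87591611) and had 5 KO and 3 WT peaks. Sult1b1, which sulfates phenols and thyroid hormones, had KO peaks of 6 and 5 fragments and no WT peak. Sult1d1, a catecholamine sulfotransferase in mouse, had KO peaks of 6 and 4 fragments and a WT peak of 4. Sult1e1, the estrogen sulfotransferase, had 1 KO peak of 5 fragments and WT peaks of 8 and 6; the first of these (chr5:87573915-87574169, fold 5.32) ranked 491 of the WT list and lay 1926 bp past the end of the gene.

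The SULT2A cluster (chr7:13623967-14493023), whose enzymes sulfate hydroxysteroids and bile acids, had 10 KO and 9 WT peaks over its 8 genes, at 25.1 (12.1 to 46.2) and 22.6 (10.3 to 42.9) per Mb. Its peaks were low, at 4 to 6 fragments in both lists. Sult2a8, the bile acid sulfotransferase of mouse liver, had KO peaks of 4 and 4 fragments inside the gene and a WT peak of 4 past its end. Sult2a4 had 3 KO and 4 WT peaks, and there the lists came closest to a common site: a KO peak of 4 fragments (chr7:13955344-13955461) and a WT peak of 5 (chr7:13955223-13955333) had edges 11 bp apart. Sult2a2 had KO peaks of 4 and 4 fragments and a WT peak of 5. Sult2a1 had WT peaks of 6 and 4 fragments and no KO peak, while Sult2a7 had KO peaks of 4 and 6 and no WT peak.

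On chromosome 17, Sult1c2 had a KO peak of 6 fragments and Sult1c1 a WT peak of 7, each inside the gene. Sult3a1 (chr10:33851020-33879475), known for female-biased expression in mouse liver, had KO peaks of 6, 4 and 4 fragments, the first at the printed start, and a WT peak of 4. No peak was called in either list at the phenol sulfotransferase gene Sult1a1, at Sult2a5, Sult2b1, Sult3a2, Sult5a1, Sult6b1 and Sult6b2, or at the brain gene Sult4a1.

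Most GST genes had no called peak. A KO peak was found at 1 of 22 and a WT peak at 3, where 29.6% and 41.6% of all protein-coding genes had one. GST genes are short, and the intervals of their peaks per Mb, given above, included the values of all protein-coding genes. All 4 theta, 3 pi, 2 omega, the kappa and the zeta genes were without one in both lists, as were 5 of 7 mu genes and, of the alpha genes, Gsta1 and Gsta2. Gsta3, an alpha class gene known in mouse for detoxifying aflatoxin, had 4 KO peaks, with 6, 4, 4 and 4 fragments, and no WT peak. Gsta4, which acts on the lipid peroxidation product hydroxynonenal, had WT peaks of 8, 6 and 4 fragments and no KO peak. Its WT peak of 8 fragments (chr9:78190063-78190174) stood on an implied background of 1.45 fragments, above the lowest common WT level of 0.692. Of the mu genes, Gstm7 had WT peaks of 8 and 5 fragments and Gstm4 a WT peak of 4.

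In height the member peaks had the same median as their lists. This median was 5 fragments at the summit in KO and 5 in WT. The highest member summit was 10 fragments in KO and 13 in WT. Summits of 6 or more were 41.7% of member peaks and 29.9% of the list in KO, and 34.1% and 34.3% in WT. By class, the UGT median was 6 in KO and 5 in WT, the SULT median 4 and 4.5, and the GST median 4 and 5.5.

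**Figure D5:**
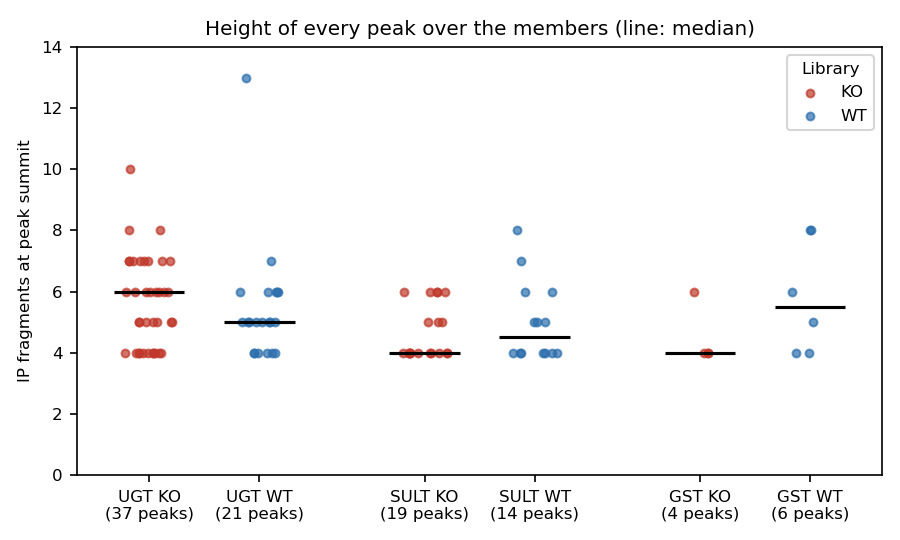
IP fragments at the summit of every peak over the members, by enzyme class, KO left of WT, with a line at the median. All summits lie between 4 and 13 fragments; the UGT medians are 6 in KO and 5 in WT.

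No KO peak over a member overlapped a WT peak. This was 0 of 60 KO peaks, with an exact upper limit of 5.96%, where 1.1% of the whole KO list overlapped a WT peak, and 0 of 41 WT peaks, with an upper limit of 8.60%, where 0.853% of the whole WT list overlapped a KO peak. A share like that of the whole lists was therefore not detectable at these numbers. The median distance to the nearest peak of the other list was 9698.5 bp for KO and 8285 bp for WT member peaks. At the 21 members with peaks in both lists, the called KO and WT peaks thus did not overlap. The closest pair, at Sult2a4, had edges 11 bp apart. Whether the marked sites differ between the genotypes was not tested.

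By what is known of their expression, the 36 members with strong expression in adult mouse liver had 45 KO and 25 WT peaks. The 9 SULT genes known as female-biased in liver had 11 and 9, and the 10 members best known outside the liver had 2 and 6. Most peaks of the first group lay at its UGT genes. Its 15 UGT genes had 35 KO and 19 WT peaks, with a KO peak at 14 and a WT peak at 10. Its 21 SULT and GST genes had 10 and 6, with a KO peak at 4 and a WT peak at 4. This split by class was made after the values were seen. Per Mb, the UGT genes of the group had 90.6 KO and 49.2 WT peaks, and its SULT and GST genes 28.0 and 16.8. The female-biased genes had 26.5 (13.2 to 47.5) and 21.7 (9.92 to 41.2). The genes best known outside the liver had 9.42 (1.14 to 34.0) and 28.2 (10.4 to 61.5). The 36 members as 1 group had 60.5 (44.1 to 81.0) and 33.6 (21.8 to 49.6). All protein-coding genes had 17.5 and 22.9. The intervals of the UGT genes lay above these values in both lists, and that of the 36 members in KO only. The intervals of the 21 SULT and GST genes, the female-biased genes and the genes best known outside the liver include those values. Some of the 64 members are in none of the groups. A KO peak was found at 29.6% of all protein-coding genes and a WT peak at 41.6%, above the share for the 21 SULT and GST genes in both lists.

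Genes that serve the same pathway were counted in the same windows, where 29.6% of all protein-coding genes had a KO and 41.6% a WT peak. These lists are short, and the counts are descriptions. Of 8 genes for making and moving the sugar and sulfate donors, a KO peak was found at 6 and a WT peak at 4, with 15 KO and 6 WT peaks in all. Ugp2, which makes UDP-glucose, had 7 KO and 3 WT peaks, with summits of up to 7 fragments in KO and 9 in WT. Papss2, a PAPS synthase gene, had 2 KO peaks of up to 6 fragments and no WT peak. Of 6 genes of glutathione supply, 2 had a KO and 4 a WT peak. The genes of both subunits of the first enzyme of glutathione synthesis, Gclc and Gclm, had 2 WT peaks each and no KO peak, as did Gss. Slc7a11 had 2 KO and 1 WT peaks, Gsr had 1 KO and no WT peak, and Ggt1 had none. Of 9 regulators, 6 had a KO and 4 a WT peak. The xenobiotic receptor genes Nr1i2 and Ahr and the stress factor gene Nfe2l2 had 2 KO peaks each, of up to 6 fragments, and no WT peak. Rxra, the partner of several nuclear receptors, had no KO peak and 1 WT peak, of 5 fragments, and Arnt, the partner of Ahr, had 2 KO and 3 WT peaks. Hnf4a had 2 KO and 1 WT peaks, Ppara 1 of each, and Nr1i3 and Keap1 none in either list. Of 12 other conjugation enzymes, 7 had a KO and 7 a WT peak, and the highest was a KO summit of 11 fragments at Mgst1, a microsomal glutathione transferase gene. Of 4 exporters of conjugates, 3 had peaks in both lists: Abcg2 had 14 KO and 8 WT peaks, Abcc2 had 2 and 3, and Abcc4 had 2 and 4.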

How the data were processed

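Peak lists of 1 KO and 1 WT H3K23pr library were used, grouped by title. The submitters' processing notes name cutadapt 1.9.3, Bowtie2 2.2.4 and the build mm10. Peaks came, per the file headers, from MACS2 2.1.1.20160309, run separately on each library in paired-end mode against its input, with a p cutoff of 0.001 and at most 2 fragments of the same ends. How reads with several equal placements were treated is not given in the sources used here. The deposited pileup is a signal and counts IP fragments over the summit. The deposited fold is a ratio of pileup to local background, with 1 added to both, and the background was computed back from it. The deposited p-value and q-value of each peak, on the −log10 scale, served to rank and filter peaks within a list.

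Genes came from the RefSeq table of GRCm38.p6, without mitochondrial genes, and start sites and strand from the RefSeq promoter table. Members of 1 class on 1 chromosome with windows 500 kb or less apart formed a cluster. Any overlap of 1 bp made peaks shared. Counts were made in Python 3.11.15 with scipy 1.17.1, after the counting was tested on simulated peaks. No test between genotypes was possible. Named by rule are members with peaks in both lists, the 10 of each list with the lowest caller p, those with a summit of 6 or more fragments near an end, and every cluster; others were named after their values were seen. The members and lists were chosen with earlier results of these data known. One regulator gene and one promoter motif are not reported here. Alternatives were other peak thresholds, windows, list lengths and overlap rules.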

Additional observations from a re-analysis of the deposited data

How the results depend on the processing

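With a summit of at least 5 fragments, 35 KO and 26 WT peaks remained over the members. At a caller q of 0.05 or smaller 22 and 5 did, at 6 members in WT. There the KO to WT ratio was 4.40 (1.63 to 14.9) and the WT median summit 8. Over all protein-coding genes that ratio was 2.06, and this cutoff asks for higher summits in WT than in KO. Without the UGT2 cluster, a setting chosen after seeing the data, 38 KO and 33 WT peaks were left, a ratio of 1.15 (0.703 to 1.89). Of the settings run, the ratio was lowest there and above 1 in all. With the WT list held to the length of the KO list by caller p it was 2.14 (1.35 to 3.49), where all genes had 0.981. This cut fell among WT peaks of equal p, which were kept in order of chromosome name and start. Tied WT member peaks on chromosomes 5, 7 and 9 were dropped and those on chromosomes 1, 10 and 15 kept. The ratio at this setting thus depends in part on where the members lie. With edges up to 500 bp apart, 1 KO and 1 WT peak counted as shared. Within 1 kb of a gene end there were 6 KO and 6 WT peaks. The other settings, namely gene windows without or with 5 kb flanks, high background left out, overlapping windows as 1 locus, another rule of overlap and peak placement, kept counts within 1.5 times. No paired analysis was possible because each genotype had 1 library. Low counts limit what is seen: most summits hold 4 to 6 fragments, fragments were shorter in KO, and reads from close copies of UGT2, SULT2A and GSTM genes may be placed at either copy; the part of these in the results was not tested.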

Other observations

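Past the common end of the UGT1A cluster, KO peaks went on beyond the window used. Between 2 and 5 kb past the end there were 5 KO peaks, with 6 to 8 fragments and an implied background of 0.851 to 1.06 fragments, and 0 WT peaks. This stretch was examined after the values were seen.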
